A study of Homo sapiens with 4 samples.

Results

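Integrins are the receptors by which cells hold on to the matrix around them, and the genes described here code for integrin chains outside the hemidesmosome pair *ITGA6* and *ITGB4*. The list was chosen by name and held 10 genes (*ITGA2*, *ITGA3*, *ITGA5*, *ITGAV*, *ITGA4*, *ITGB1*, *ITGB3*, *ITGB5*, *ITGB6* and *ITGB8*), of which 9 were measured among the 16811 genes of the table. *ITGB3* was not analysed here. All 9 had a mean value of at least 10 over the libraries and were tested among the 9590 genes at or above that value.

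The 4 libraries came from MCF12A, an immortalized, non-tumorigenic human mammary epithelial cell line that the labels call a breast cancer line. The 2 wild-type libraries were from unedited cells, and the 2 edited libraries from cells labelled C1orf132 KO, in which CRISPR/Cas9 had been used to cut out the p2 promoter of *C1orf132*, the host gene of miR-29b2 and miR-29c. All cells grew in the same medium with horse serum, EGF, hydrocortisone, cholera toxin and insulin. Edited colonies were grown from sorted single cells, so a difference between the groups may also be one between a clone and its parent culture, and the sources used here do not say whether both edited libraries came from 1 colony. The series describes the libraries as biological replicates without saying how they were separated, so p-values measure the spread between these libraries. The labels call the genotype a knockout, and the study uses both knockout and knock-down for the edit. *C1orf132* was not analysed here, and groups were taken from the labels.

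Each integrin is a pair of 1 alpha and 1 beta chain, and the pair decides what the cell can bind. Alpha2 with beta1 binds collagen, alpha3 with beta1 binds laminins of the epithelial basement membrane, and alpha5 or alpha4 with beta1 binds fibronectin. AlphaV pairs with beta1, beta3, beta5, beta6 or beta8 and recognises the RGD motif of vitronectin, fibronectin and the latency peptide of TGF-beta; alphaVbeta6 is an epithelial receptor that binds fibronectin and tenascin and, like alphaVbeta8, releases active TGF-beta from its latent form.

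*ITGB6* was the only member that passed the test, and it fell almost to nothing. With 2 libraries a group, the other members were not shown to be unchanged. The expression signal is a deposited normalized value whose scaling is not given and which was taken here as scaled for transcript length. It was 288 and 359 in wild-type replicates 1 and 2 and 0.770 and 3.86 in edited replicates 1 and 2. The lowest wild-type value stood 74.5-fold above the highest edited value. The log2 fold change of signal + 1 was -6.78 (standard error, SE, 0.47, with a limma adjusted p = 0.00443 after Benjamini-Hochberg adjustment over all tested genes). The ratio of the group means, 323 ± 50.4 (SD, n = 2) in wild-type and 2.32 ± 2.19 (SD, n = 2) in edited cells, was 139.6-fold. About 10852 and 14737 reads were estimated for *ITGB6* in the wild-type libraries and about 31 and 173 in the edited libraries, so transcripts were still counted in both edited libraries. Leaving out 1 library at a time gave changes from -7.51 to -6.05. Without wild-type replicate 2 its adjusted p was 0.0833 (limma), in a comparison that called 4 of the 9590 tested genes.

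Of the 9 members, 1 passed an adjusted p of 0.05 (limma), lower in edited cells, and 0 were higher. Across all tested genes 7.09% passed in either direction, 4.2% lower and 2.89% higher. In the same fit over all 16811 genes, used here for genes with a mean under 10, 4.73% passed, 3.4% lower and 1.33% higher. An unadjusted p under 0.05 was found for 1 of the 9 members, again *ITGB6*, and for 32.3% of the tested genes. At an adjusted p of 0.001, the limit the study used, 0 members passed in this limma fit, and 0.0104% of the tested genes did. The study reported many more genes at that limit, from an RNA-seq test it does not state. The values of the 2 groups did not overlap for 4 of the 9 members (*ITGA3*, *ITGA4*, *ITGB1* and *ITGB6*), against 65.1% of the tested genes and 61.6% of all genes of the table. The members had a median log2 fold change of -0.24, and all tested genes one of 0.09. With 2 libraries a group, the smallest p of an exact permutation test (two-sided) is 0.333, so the calls rest on the variance that limma shares across genes.

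**Figure D1:**
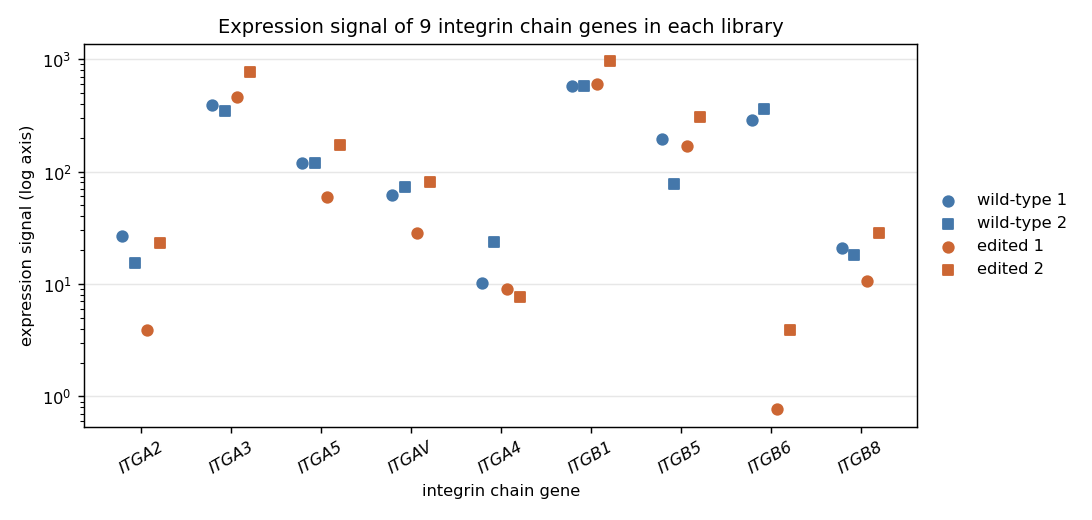
Expression signal (log axis) of the 9 measured integrin chain genes in the 2 wild-type (blue) and 2 edited (orange) libraries; circles are replicate 1 and squares replicate 2. *ITGB6* separates the groups by 74.5-fold or more, and edited replicate 2 stands above edited replicate 1 for 8 of the 9 genes.

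*ITGB6* lies on the minus strand of chromosome 2 from 160099671 to 160200272 (RefSeq, GRCh38.p14) and spans 100602 bases. Its promoter window, from 250 bases before to 50 after the RefSeq start, is shown because it had the lowest GC content and the fewest CpG dinucleotides of the 12 member windows found in RefSeq (none was found for *ITGA3* and *ITGB3*). That of *ITGB8*, the other chain known for releasing TGF-beta, is given beside it. Capitals mark the E-box CAGGTG, read on either strand, which the repressors of the SNAI and ZEB families are known to bind.
ITGB6, chr2:160200223-160200522, minus strand: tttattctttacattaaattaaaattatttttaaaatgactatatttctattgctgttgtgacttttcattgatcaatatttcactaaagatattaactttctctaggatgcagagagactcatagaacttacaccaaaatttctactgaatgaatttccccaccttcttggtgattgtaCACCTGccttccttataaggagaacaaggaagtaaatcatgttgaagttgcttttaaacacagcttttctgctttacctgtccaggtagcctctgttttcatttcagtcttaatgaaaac
ITGB8, chr7:20330650-20330949, plus strand: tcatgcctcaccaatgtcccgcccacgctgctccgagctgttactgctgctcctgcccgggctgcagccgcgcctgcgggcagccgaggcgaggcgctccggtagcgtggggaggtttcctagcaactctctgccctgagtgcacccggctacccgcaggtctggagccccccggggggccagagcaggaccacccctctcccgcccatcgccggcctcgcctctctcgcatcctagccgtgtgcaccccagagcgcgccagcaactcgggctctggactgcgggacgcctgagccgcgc
The *ITGB6* window had a GC content of 31.7% and held 0 CpG dinucleotides, while the *ITGB8* window had 71.7% and 28. Across 35116 RefSeq promoter windows the median GC content was 58.7% and the median number of CpG dinucleotides 14, and 3.96% of windows held none. RefSeq windows were found for 8 of the 10 members, 12 in all. In the other members' windows the GC content ranged from 40.7% to 78.3% and the CpG number from 1 to 39. The windows nearest to that of *ITGB6* were at the second start of *ITGAV* (41.3%, 1 CpG) and the second start of *ITGB1* (40.7%, 4 CpG).

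The *ITGB6* window held 1 E-box, 70 bases before the start, and E-boxes were found in 2 of the 12 member windows (the other in the third *ITGB5* window, 215 bases before the start) and in 20.6% of all windows. The AP-1 motif TGANTCA was found in 1 member window, that of *ITGA5*, 6 bases before its start, and in 7.71% of all windows. The TEAD motif GGAATG was found 82 bases before the *ITGA5* start and 182 bases before the first *ITGB1* start, and in 14.0% of all windows. The motif AACCGGTT of the epithelial Grainyhead factors was in 0 member windows and in 0.134% of all windows. Each motif was searched on both strands; the motifs do not overlap in these windows, and a match describes the letters only.

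The genes around *ITGB6* were looked at next. Of the 9 measured genes within 1 Mb (matched to RefSeq by symbol or synonym, and chosen after their values were seen), 0 passed an adjusted p of 0.05 (limma) and 2 had an unadjusted p under 0.05, with log2 fold changes from -1.41 to 0.40. These genes came from both fits. The shares were 7.09% and 32.3% over the tested genes, and 4.73% and 29.2% over all 16811 genes. With 9 genes a count of 0 is near either background. The nearest were *PLA2R1*, 37.1 kb away and a phospholipase A receptor (log2 fold change -0.93, adjusted p = 0.213 among all genes of the table), and *RBMS1*, 71.9 kb away on the other side and an RNA-binding protein (-0.05, limma adjusted p = 0.894). *LY75*, a lectin-like endocytic receptor gene 194.9 kb away, had the lowest value of these, -1.41 (limma adjusted p = 0.0528), with a signal of 1.92 and 2.63 in wild-type and of 0.168 and 0.280 in edited cells. For chromosome 2 as a whole (601 tested genes) the median was 0.10. *ITGAV* and *ITGA4*, which lie on the same chromosome, are described with the alpha chains.

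**Figure D2:**
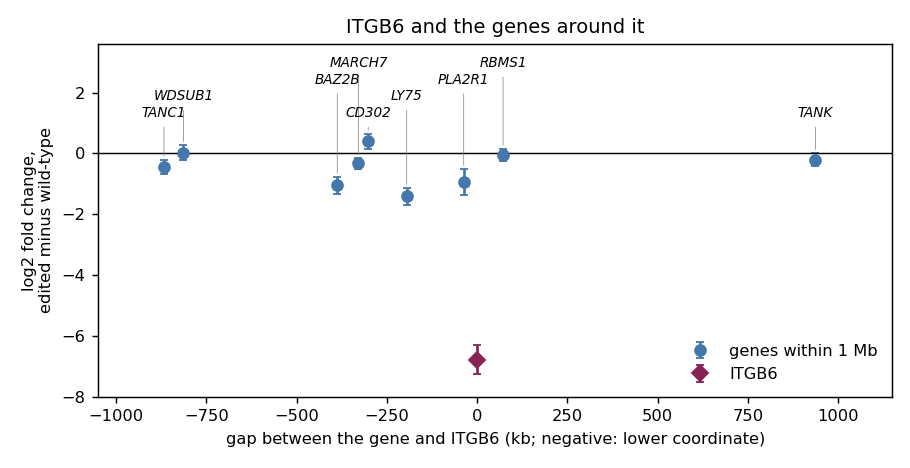
Log2 fold change of signal + 1, edited minus wild-type, with its SE (bars), for *ITGB6* (diamond, at 0) and the 9 measured genes within 1 Mb (circles), against the gap in kb between each gene and *ITGB6*. *ITGB6* sits at -6.78, and the genes around it lie between -1.41 and 0.40.

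Over the 4 libraries, the tested genes whose centred log2 profile lay closest to that of *ITGB6* were *HOXA9* (Euclidean distance 0.543), *TMPRSS4* (1.21) and *EHF* (1.26). *HOXA9*, a homeobox gene, had a signal of 172 and 148 in the wild-type and 0.157 and 1.21 in the edited libraries. *TMPRSS4* is a membrane serine protease and *EHF* an epithelial ETS factor. Profiles over 4 libraries of 2 groups are dominated by the difference between the groups, and the distances are a description.

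Neither of the other measured beta chains that pair with alphaV alone passed the test. *ITGB5*, the vitronectin-binding chain, had a signal of 194 and 77.3 in wild-type replicates 1 and 2 and 169.5 and 306 in edited replicates 1 and 2, so the groups overlapped (log2 fold change 0.89, SE 0.50, limma adjusted p = 0.270). With each library left out in turn its log2 fold change ranged from 0.23, without wild-type replicate 2, to 1.55, without wild-type replicate 1. *ITGB8* had a signal of 21.1 and 18.0 in the wild-type and of 10.6 and 28.4 in the edited libraries, with the edited values on either side of the wild-type ones. The log2 fold change came to -0.15 (SE 0.44, limma adjusted p = 0.841), and it was 0.52 without edited replicate 1.

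The signal of the 3 measured beta chains that pair with alphaV alone therefore had another make-up in edited cells. *ITGB6* held 57.2% and 79.0% of their summed signal in wild-type replicates 1 and 2 and 0.426% and 1.14% in edited replicates 1 and 2. *ITGB5* held 38.6% and 17.0% in the wild-type and 93.7% and 90.5% in the edited libraries. The sum itself was 502 and 454 in the wild-type and 181 and 339 in the edited libraries. *ITGB8* held from 3.96% to 8.38% in all 4. This sum was chosen after the values were seen and leaves out *ITGB3*, and no test was made of it.

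**Figure D3:**
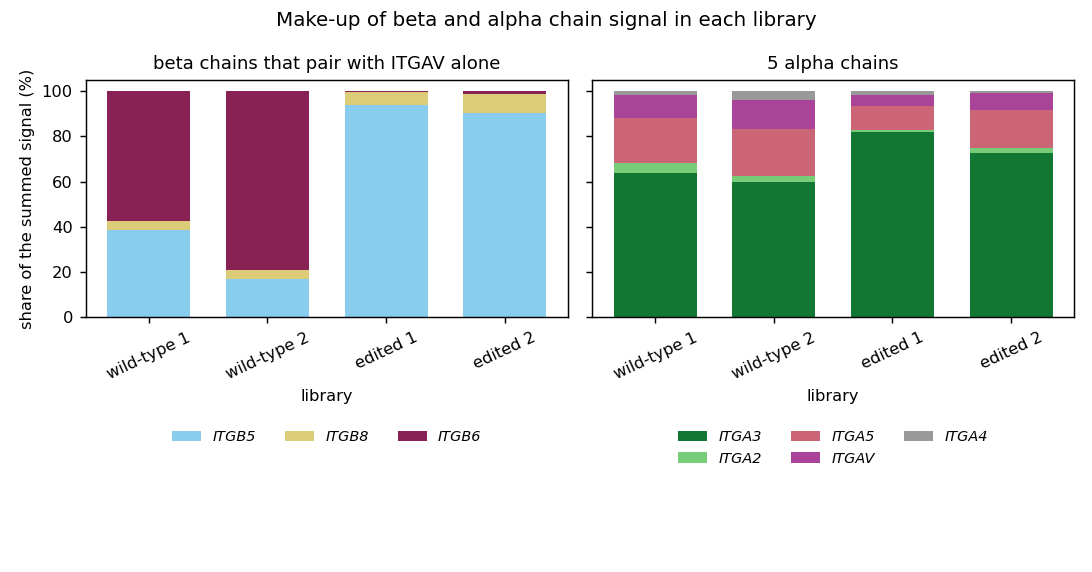
Stacked bars of the share (%) of the summed expression signal in each library, for the beta chains *ITGB5*, *ITGB8* and *ITGB6* (left) and for 5 alpha chains (right). *ITGB6* takes 57.2% and 79.0% of the beta signal in the wild-type bars and 0.426% and 1.14% in the edited bars, and the *ITGA3* share is higher in both edited bars.

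*ITGB1*, the beta chain that serves all 5 alpha chains of the list, was the most expressed member in both groups. Its signal was 581 and 571 in the wild-type and 597 and 955 in the edited libraries. Both edited values were above the wild-type ones, edited replicate 1 by little (log2 fold change 0.39, SE 0.28, limma adjusted p = 0.374). Without edited replicate 2 the log2 fold change was 0.05. The table lists the pseudogene *ITGB1P1* at 200.2 and 176 in the wild-type and 202 and 320 in the edited libraries, and reads of such near-identical copies may have been split between them, so the level of *ITGB1* is uncertain.

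Among the collagen and laminin-binding alpha chains, *ITGA3* and *ITGA2* differed in level and in direction, and neither passed the test. *ITGA3*, the laminin-binding chain, had a signal of 387 and 343 in the wild-type and 457 and 764 in the edited libraries, both edited values being above the wild-type ones. The log2 fold change came to 0.70 (SE 0.30, limma adjusted p = 0.175), from 0.33 without edited replicate 2 to 1.07 without edited replicate 1. *ITGA2*, the collagen-binding chain, had 26.7 and 15.3 in the wild-type and 3.91 and 23.1 in the edited libraries. Edited replicate 1 was low and edited replicate 2 lay between the wild-type values (log2 fold change -0.97, SE 0.75, limma adjusted p = 0.407). Without edited replicate 2 it was -2.11 (limma adjusted p = 0.0148) and without edited replicate 1 it was 0.18 (adjusted p = 0.808), so 1 library decides its direction.

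For *ITGA5* and *ITGAV*, edited replicate 1 lay below and edited replicate 2 above both wild-type libraries. *ITGA5*, the fibronectin-binding chain, had a signal of 119 in both wild-type libraries and of 59.1 and 173 in edited replicates 1 and 2 (log2 fold change -0.24, SE 0.49, limma adjusted p = 0.769). *ITGAV*, the partner of *ITGB6*, had 61.4 and 73.3 in the wild-type and 28.6 and 81.2 in the edited libraries (log2 fold change -0.47, SE 0.48, limma adjusted p = 0.530). Without edited replicate 2 both passed the test as lower, *ITGA5* at -1.003 (adjusted p = 0.0432) and *ITGAV* at -1.20 (limma adjusted p = 0.0240), in a comparison that called 14.9% of the tested genes. Without edited replicate 1 they were at 0.53 and 0.27 and did not pass.

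*ITGA4*, which binds fibronectin and VCAM1 and is best known from leukocytes, had the lowest mean signal of the members in wild-type cells. In wild-type replicate 2 alone *ITGA2* (15.3) and *ITGB8* (18.0) were lower. The signal of *ITGA4* was 10.2 and 23.4 in the wild-type and 8.98 and 7.64 in the edited libraries, with both edited values below the wild-type ones. The log2 fold change came to -0.83 (SE 0.40, limma adjusted p = 0.213), and -0.27 without wild-type replicate 2.

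**Figure D4:**
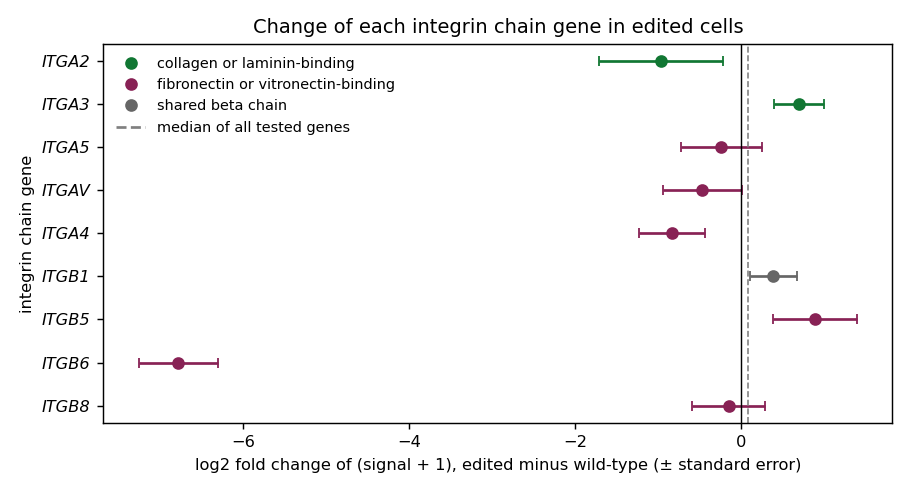
Log2 fold change of signal + 1, edited minus wild-type, with its SE (bars), for each integrin chain gene; colours give the ligand class and the dashed line is the median of all tested genes, 0.09. *ITGB6* lies at -6.78, and the other 8 genes lie between -0.97 and 0.89 with none past an adjusted p of 0.05.

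By ligand class, 0 of the 2 collagen or laminin-binding chains and 1 of the 6 measured fibronectin or vitronectin-binding chains passed an adjusted p of 0.05 (limma), beside 7.09% of the tested genes. At an unadjusted p under 0.05 the numbers were the same, 0 and 1. Medians of the log2 fold change were -0.13 in the first class and -0.35 in the second. In the second class 5 of the 6 values were below 0 and *ITGB5* was above.

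Within a library, the signal of *ITGA2* and *ITGA3* can be set against that of all 5 alpha chains. It made up 68.4% and 62.4% in wild-type replicates 1 and 2 and 82.7% and 75.0% in edited replicates 1 and 2. The share was thus higher in both edited libraries, by 13.5 percentage points in the mean, and by 9.65 to 17.3 points with each library left out in turn. Nearly all of it was *ITGA3*, which held from 59.7% to 64.0% in the wild-type and from 72.8% to 82.0% in the edited libraries, while *ITGA2* held from 0.702% to 4.41% in all 4. The log2 ratio of *ITGA2* and *ITGA3* to *ITGA5* and *ITGAV* was 1.196 and 0.89 in the wild-type and 2.39 and 1.63 in the edited libraries. No test was made of these shares, and the share of any chain moves with the signal of the others.

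In order of mean signal, wild-type cells had *ITGB1* (576), *ITGA3* (365), *ITGB6* (323), *ITGB5* (136), *ITGA5* (119), *ITGAV* (67.3), *ITGA2* (21.0), *ITGB8* (19.5) and *ITGA4* (16.8). The values of *ITGA3* and *ITGB6* overlapped between libraries, as did those of *ITGB5* and *ITGA5* and those of *ITGA2*, *ITGB8* and *ITGA4*. In edited cells the order was *ITGB1* (776), *ITGA3* (610.3), *ITGB5* (238), *ITGA5* (116), *ITGAV* (54.9), *ITGB8* (19.5), *ITGA2* (13.5), *ITGA4* (8.31) and *ITGB6* (2.32). *ITGB6* passed from the third place to the last. The steps from *ITGA3* to *ITGB5*, from *ITGAV* to *ITGB8* and from *ITGA4* to *ITGB6* were the ones without overlap between the edited libraries. Within each edited library the order was the same, except that *ITGA4* (8.98) stood above *ITGA2* (3.91) in edited replicate 1.

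For 7 of the 9 members, all but *ITGB5* and *ITGA4*, the edited replicates differed more from each other than the wild-type replicates did. Edited replicate 2 was above edited replicate 1 for 8 of the 9 members, all but *ITGA4*, beside 46.6% of the tested genes. The median difference of the members was 1.34 on the log2 scale of signal + 1, against -0.03 for all tested genes, and 8 members exceeded 0.5 beside 10.4% of the tested genes. The ratio was 5.90 for *ITGA2*, 5.02 for *ITGB6*, 2.92 for *ITGA5*, 2.84 for *ITGAV* and 2.67 for *ITGB8*. It was smaller for *ITGB5* (1.81), *ITGA3* (1.67) and *ITGB1* (1.60). Between the wild-type replicates the median difference of the members was -0.03, and *ITGB5* (-1.31) and *ITGA4* (1.12) stood farthest apart. These are differences between single libraries and carry no test.

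**Figure D5:**
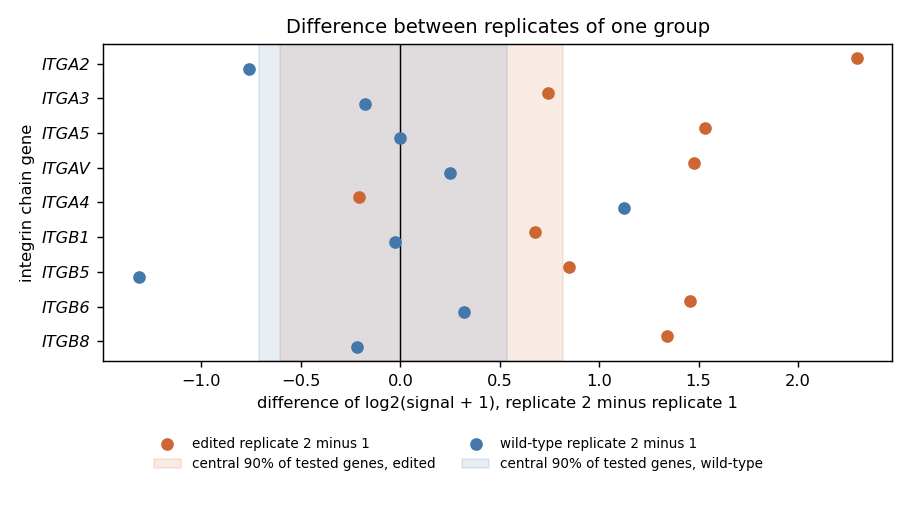
Difference of log2(signal + 1), replicate 2 minus replicate 1, for each integrin chain gene in edited (orange) and wild-type (blue) cells; shaded bands hold the central 90% of all tested genes. The edited points lie between 0.68 and 2.29 for every gene except *ITGA4* (-0.21), and the wild-type points range from -1.31 to 1.12.

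The edit was made at the host gene of miR-29b2 and miR-29c, so the seed of miR-29 was searched in the members. The mature forms hosted there share their seed (bases 2 to 8, in capitals) and are shown with the 2 member sites that match it (match in capitals).
hsa-miR-29c-3p: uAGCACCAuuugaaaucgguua
hsa-miR-29b-3p: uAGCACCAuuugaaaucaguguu
ITGA2 site: acagctagTGGTGCTggtgtg
ITGB1 site: ttaatgtcTGGTGCTttctgt
The site of *ITGA2* starts at base 2090 of the 4180 bases of the 3 prime UTR of its canonical transcript (ENST00000296585), and that of *ITGB1* at base 830 of 1252 (ENST00000302278). The other 7 measured members, *ITGB6* among them, held 0 matches, and 15.3% of the 8370 tested genes with an annotated 3 prime UTR held at least 1. As given with the 2 genes, *ITGB1* was at 0.39 and *ITGA2* at -0.97 without passing the test. The median log2 fold change was 0.01 for all tested genes with a match and 0.10 for those without. A match describes letters and not a site in use.

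Among the genes that switch integrins on and link them to the cytoskeleton, the 2 measured kindlins passed the test in opposite directions. *FERMT1*, the kindlin of epithelia, fell, with a signal of 46.0 and 48.4 in the wild-type and 24.8 and 24.0 in the edited libraries (log2 fold change -0.93, SE 0.16, limma adjusted p = 0.0379). *FERMT2*, the kindlin of mesenchymal and many other cells, rose from 18.0 and 18.3 to 43.6 and 40.4 (log2 fold change 1.17, SE 0.16, limma adjusted p = 0.0241). *FERMT1* passed in 8 of the 15 alternative analyses and *FERMT2* in 10. These were the 2 called of 8 measured activators and inactivators of integrins, beside 7.09% of the tested genes and 4.73% in the fit over all genes. The talin gene *TLN1* was at 417 and 423 in the wild-type and 427 and 511 in the edited libraries. Of 18 focal adhesion adaptors and kinases, 0 passed an adjusted p of 0.05 (limma) and 3 had an unadjusted p under 0.05, beside 7.09% and 32.3% of all tested genes, and their median log2 fold change was 0.05.

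Among surface partners of integrins, *CD9* and *CD47* fell and the other 7 of 9 did not pass. Of all tested genes 7.09% passed, 4.2% as lower. *CD9*, a tetraspanin that sits beside beta1 integrins, went from 334 in both wild-type libraries to 95.4 and 123 (log2 fold change -1.62, limma adjusted p = 0.0222). *CD47*, the integrin-associated protein, went from 197 and 252 to 61.3 and 73.2 (-1.72, adjusted p = 0.0199). *ITGAM*, the alphaM chain of leukocytes, fell too, from 16.3 and 41.7 to 0.309 and 1.66 (-3.87, limma adjusted p = 0.0264). It was the 1 called of 8 other measured integrin chains, of which 3 had a mean of at least 10. In the fit over all genes 4.73% passed. The hemidesmosome chains *ITGA6* and *ITGB4* did not pass, at -0.28 and -0.64.

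Among the ligands, 2 of 10 measured laminin and collagen genes passed, both lower, beside 7.09% of the tested genes, 4.2% as lower. *COL17A1* was at 1062 and 1268 in the wild-type and 260.0 and 456 in the edited libraries (log2 fold change -1.75, limma adjusted p = 0.0405). It is a collagen of the hemidesmosome, whose integrin chains the members leave out. *COL1A1* was the other, at a low signal of 15.6 and 28.1 in the wild-type and 3.19 and 5.58 in the edited libraries (-2.06, limma adjusted p = 0.0420). *LAMA3* and *LAMB3*, which code for chains of the main ligand of alpha3beta1, were at -2.69 (adjusted p = 0.0520) and -2.52 (adjusted p = 0.0715) and did not pass.

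Of 11 measured ligands of the fibronectin and vitronectin receptors, 2 passed, both higher. Of the tested genes 7.09% passed, 2.89% as higher, and in the fit over all genes 4.73%, 1.33% as higher. With 2 calls in each ligand list, a difference between the lists was not tested. They were *CYR61* (2.53, limma adjusted p = 0.0465) and *CTGF* (3.43, adjusted p = 0.0355), matricellular proteins now named CCN1 and CCN2. *CYR61* passed in 6 of the 15 alternative analyses and *CTGF* in 10. *FN1*, the fibronectin gene, was at 645 and 314 in the wild-type and 171 and 3735 in the edited libraries, so the edited libraries lay on either side (adjusted p = 0.707). *TGFB1*, whose latent form alphaVbeta6 binds, was at 105 and 87.8 in the wild-type and 34.3 and 63.8 in the edited libraries (-1.02, limma adjusted p = 0.0983).

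Over these lists 9 of 66 measured genes passed, 3 higher and 6 lower. The lists were chosen with earlier results of these data known, so their counts and shares are a description. All 9 had a mean of at least 10, as did 57 of the 66 genes, which makes 15.8% of those beside 7.09% of all tested genes. Leaving out 1 library at a time gave from 0, without wild-type replicate 2, to 15, without edited replicate 2, and 1 without wild-type replicate 1.

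Markers of cell types moved in both directions beside the fall of *ITGB6*. Across all tested genes 7.09% passed, and 4.73% did in the fit used for genes with a mean under 10. Of 6 genes listed for basal mammary epithelium, 4 passed as lower, *CDH1* (log2 fold change -5.28), *TP63*, *EPCAM* and *KRT17*. *CDH1* and *EPCAM* are epithelial genes not particular to basal cells. *KRT5* (-1.17, limma adjusted p = 0.146) and *KRT14* (-3.08, limma adjusted p = 0.0512) had values below 0 and did not pass. The summed signal of the 6 was 10464 to 19899 in the wild-type and 4242 to 5022 in the edited libraries, nearly all from *KRT5*, *KRT14* and *KRT17*. The lowest value of any of the 6 was 1.54, that of *CDH1* in edited replicate 2. Of 5 luminal markers, 1 passed, *KRT8*, higher. *KRT19* (2.70 and 6.42 in the wild-type, 0.471 and 0 in the edited libraries, log2 fold change -2.11, limma adjusted p = 0.0569) and *ESR1* (-1.54, adjusted p = 0.0663) had values below 0 and did not pass. The summed signal of the 5, nearly all from *KRT8* and *KRT18*, was 274 to 483 in the wild-type and 663 to 668 in the edited libraries. Of 10 fibroblast or mesenchymal markers 5 were measured. *VIM* and *CDH2* passed as higher and *COL1A1* as lower, while *DCN* and *TWIST1* did not pass. The summed signal of the 5, mostly from *VIM*, was 242 to 295 in the wild-type and 865 to 1359 in the edited libraries. Of 5 leukocyte markers only *CD68* was measured (37.5 to 39.8 in the wild-type and 32.7 to 49.1 in the edited libraries), and 0 of 4 endothelial markers were. In bulk RNA, fewer cells of a type and less RNA per cell cannot be told apart, and the part of these markers in the change of *ITGB6* was not tested.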

How the data were processed

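Poly(A)-selected RNA of 2 wild-type and 2 edited MCF12A cultures was sequenced from 1 end (75 bases). The authors deposited 1 normalized expression signal per gene symbol and library. The submitters' processing notes name Salmon, HISAT2 and hg38. Versions, annotation and scaling are not given in the sources used here. Scaling for transcript length was inferred from the steps of low values described below. The signal summed to 1444640 to 1655440 per library. Values are not counts, so count tests were not used. Depth was estimated from 851 genes with a single transcript of at least 250 bases: of the 55 to 77 per library with low values, 56.9% to 64.9% lay within 0.1 of a whole read number of up to 4, when 1 read on 1 kb was worth 0.104 to 0.123 of signal; the median over other steps was 15.7% to 17.9%. Read numbers of a gene use its canonical GENCODE transcript, are approximate and cover counting error only, since no molecular identifiers were used.

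Log2(signal + 1) was fitted with limma 3.58.1 (lmFit, eBayes with trend) in R 4.3.3 over the 9590 genes with a mean of at least 10, with Benjamini-Hochberg adjustment; list genes below that mean were tested in the same fit over all 16811 genes, where 4.73% were called. The fold change is on the log2(signal + 1) scale, which understates changes of low genes. Calls use an adjusted p under 0.05. The study's own limit of 0.001 is given beside it, and its RNA-seq test is not stated. The script was tested on simulated data. Members, lists and tests were chosen with earlier results of these data known. Named genes are the members, genes of the lists, the 3 nearest profiles of each called member, and the neighbours of *ITGB6*, which were added after their values were seen. Promoter and miRNA sequences are from RefSeq (GRCh38.p14), and 3 prime UTRs from GENCODE version 44 transcripts. Symbols were matched to RefSeq for 93.4% of tested genes. Alternatives changed the pseudocount, filter, scaling, trend, threshold and replicate block, and left out each library. Python 3.11.15, numpy 2.4.6 and pandas 2.3.3 were used.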

Additional observations from a re-analysis of the deposited data

How the results depend on the processing

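The alternatives were another pseudocount (0.1 or 5), no filter or a mean of at least 50, equal library totals, quantile and cyclic loess normalization, no variance trend, the replicate block, the limit of 0.001, leaving out each library, and the crossed pairing described last. *ITGB6* was lower in all 15 and passed its limit in 13, from -7.51 to -5.51. The 2 others were the limit of 0.001 (adjusted p = 0.00443 from limma) and the comparison without wild-type replicate 2, where the log2 fold change was -6.62 (adjusted p = 0.0833). Over the 15 its adjusted p ranged from 1.43e-05 to 0.0833. The other 8 members did not pass in any alternative, except, without edited replicate 2, *ITGA2* (-2.11), *ITGA5* (-1.003) and *ITGAV* (-1.20), while *ITGB8* (-0.82) did not pass there. Without edited replicate 1 the log2 fold changes of *ITGA2* (0.18), *ITGA5* (0.53), *ITGAV* (0.27) and *ITGB8* (0.52) were reversed, and the cause was not tested. The number of members called was from 0 to 4 with each library left out, and 0 at 0.001. The number of list genes called was from 0 to 15 with each library left out and 0 at 0.001. Of the list genes called, *ITGAM* and *CD47* passed in 12 of the 15 alternatives, *CD9* in 11, *FERMT2*, *COL17A1* and *CTGF* in 10, *COL1A1* in 9, *FERMT1* in 8 and *CYR61* in 6; *CYR61* did not pass with a pseudocount of 0.1, with either other filter, with quantile or cyclic loess normalization, with the replicate block, at 0.001, or without edited replicate 1 or wild-type replicate 2. The share of *ITGA2* and *ITGA3* among the alpha chains stayed higher in edited cells, by 12.5 points without *ITGA4*. Equal library totals moved the median of all genes from 0.09 to -0.03.

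The replicate numbers were shared between the groups only as numbers. Across genes, the difference between replicates 1 and 2 in edited cells correlated with that in wild-type cells at r = -0.138. With the replicate block 1 member and 2 list genes were called, and 133 of 9590 tested genes. With the numbers crossed, an alternative added after seeing the data, 1 member and 14 list genes were called, and 1002 tested genes. Where a library is left out, the lone library of its group is assumed to vary like the others. The number of libraries and the depth both limit the precision.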
